A study of Mus musculus with 2 samples.

Results

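The receptors described here are those through which serotonin, dopamine, noradrenaline and adrenaline, histamine and, at its muscarinic receptors, acetylcholine act on cells. They were taken by gene symbol from the autosomal protein-coding genes of the GENCODE M21 annotation: 36 of 20722 genes. Of these, 13 encode serotonin receptors, 5 dopamine receptors, 9 adrenergic receptors, 5 muscarinic acetylcholine receptors and 4 histamine receptors. Nicotinic acetylcholine receptors are ion channels of another family and were kept apart, as part of the surrounding pathway.

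Chromatin accessibility was measured by DNase-seq: nuclei are treated with DNase I, which cuts mainly where DNA is free of nucleosomes, and the ends of the cuts are sequenced. Its 1 group consisted of hippocampus from male mice aged 2 months of the hybrid strain B6CASTF1/J, with no treatment, no altered allele and no second tissue named. The 2 samples were labelled biological replicates 1 and 2, came from separate biosamples and carried the same donor entry. The tissue entry names a layer of the hippocampus without saying which, and no label says that the replicates came from separate animals, so their spread may be technical. With 1 group there was no contrast and no test was made. Values were set beside the same values over all autosomal protein-coding genes and beside the spread between the replicates.

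Nearly all of these receptors cross the membrane several times and signal through G proteins. Receptors coupled to Gs raise cyclic AMP, those coupled to Gi and Go lower it, and those coupled to Gq and G11 release calcium through phospholipase C. The exceptions are the 5-HT3 subunits Htr3a and Htr3b, which form a cation channel. Axons from the raphe, locus coeruleus, hypothalamus and septum release these transmitters in the hippocampus, where the receptors sit on pyramidal cells, granule cells, interneurons, glia and incoming terminals.

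Replicate 1 held 132685 peaks and 255536 footprints, which are short protected stretches inside open chromatin, and replicate 2 held 59880 peaks and 111355 footprints. Heights are the authors' signal values. In each replicate they rose in whole steps, of 0.00535 in replicate 1 and 0.0108 in replicate 2. If a step is 1 read or cut scaled as in CPM, the steps correspond to depths of 187 and 93.0 M, which is an inference from the values. A shared peak was the stretch covered by overlapping peaks of both replicates. Promoters of all 5 neuron markers and of 4 of 5 excitatory neuron markers held a shared peak, beside 58.2% of all genes. Such a peak was found at 0 of 5 choroid plexus markers, 1 of 5 microglia markers and 1 of 5 vascular markers. The count was 3 of 4 for dentate granule cells, 2 of 5 for interneurons and 3 of 5 each for astrocytes and oligodendrocytes. Markers of neighbouring regions were open too, at 4 of 5 genes for striatum and 3 of 5 for thalamus. In replicate 1 alone, 3 of 5 microglia, 3 of 5 vascular and 1 of 5 choroid plexus markers had a promoter peak. All 5 neuron and all 5 excitatory neuron markers had one there, beside 64.6% of all genes. The part of other cells in the receptor peaks was not tested. In such bulk tissue, fewer cells with an open site and a less open site in each cell cannot be told apart, and heights pool both parental alleles.

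The sequences under the leading receptor peaks are given first, from the RefSeq GRCm38.p6 genome, on the strand of the gene, with capitals marking bases inside footprints found in both replicates. Drd1, Adra1d and Chrm3 had the highest promoter peaks, by the mean of the replicates, of those with enough bases outside untranslated regions to print, and only such bases are shown. The intronic site of Htr2a was the highest distal site by the same mean, and Htr5a, chosen after its values were seen, holds a match to part of the REST motif. They come from chr13:54055706-54055820 for Drd1, chr2:131562751-131562910 for Adra1d and chr13:10360911-10361070 for Chrm3, all on the minus strand. Those of Htr5a and Htr2a come from chr5:27841731-27841890 and chr14:74643461-74643620, both on the plus strand.
Drd1 promoter: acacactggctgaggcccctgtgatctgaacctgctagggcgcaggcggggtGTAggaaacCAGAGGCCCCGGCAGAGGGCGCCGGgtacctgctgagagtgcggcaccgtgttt
Adra1d promoter: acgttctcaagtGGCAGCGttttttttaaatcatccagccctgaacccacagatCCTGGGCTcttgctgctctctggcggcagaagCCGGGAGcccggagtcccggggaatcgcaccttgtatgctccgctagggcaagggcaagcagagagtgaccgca
Chrm3 promoter: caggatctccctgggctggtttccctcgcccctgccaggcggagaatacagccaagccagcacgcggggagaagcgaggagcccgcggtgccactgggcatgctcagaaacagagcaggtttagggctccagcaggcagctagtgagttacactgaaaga
Htr5a promoter: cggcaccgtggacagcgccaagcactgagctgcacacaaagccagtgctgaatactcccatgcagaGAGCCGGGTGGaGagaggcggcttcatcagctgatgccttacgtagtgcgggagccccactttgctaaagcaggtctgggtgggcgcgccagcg
Htr2a intron: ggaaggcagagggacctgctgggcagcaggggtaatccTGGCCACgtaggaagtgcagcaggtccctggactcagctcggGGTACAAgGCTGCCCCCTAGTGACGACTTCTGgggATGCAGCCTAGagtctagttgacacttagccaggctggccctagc
Chrm3 had no footprint found in both replicates in this stretch, so it carries no capitals.

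A promoter was called open if part of a shared peak fell inside a window reaching 500 bp upstream and downstream of any protein-coding start site. By this rule 19 of the 36 receptor genes were open (52.8%), beside 58.2% of all 20722 genes. In replicate 1 alone, 29 receptor genes had a promoter peak (80.6%, beside 64.6% of all genes), and in replicate 2 alone 23 (63.9%, beside 59.6%). Leaving out replicate 2 therefore moved the count from 19 to 29. The share lay below that of all genes by shared peaks and above it by either replicate alone.

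Most receptor promoters that were open were low. The median height over the 19 was 0.872 in replicate 1 and 0.947 in replicate 2, while over the 12064 open genes it was 4.16 and 2.52. By the mean of the replicates, 15 of the 19 (78.9%) lay below the lower quartile of all open genes, 1.97, and 0 lay above the median, 3.37. In replicate 2 alone, Chrm1 at 2.65 and Drd1 at 2.55 lay just above the median of all open genes. Open stretches were of much the same width, with medians of 220 bp at the receptors and 240 bp over all open genes. Footprints in the open stretch had a median of 3 in replicate 1 and 2 in replicate 2, beside 4 and 3 for all open genes. At least 1 footprint was found in both replicates at 11 of the 19 open receptor promoters, beside 78.8% of all open promoters.

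**Figure D1:**
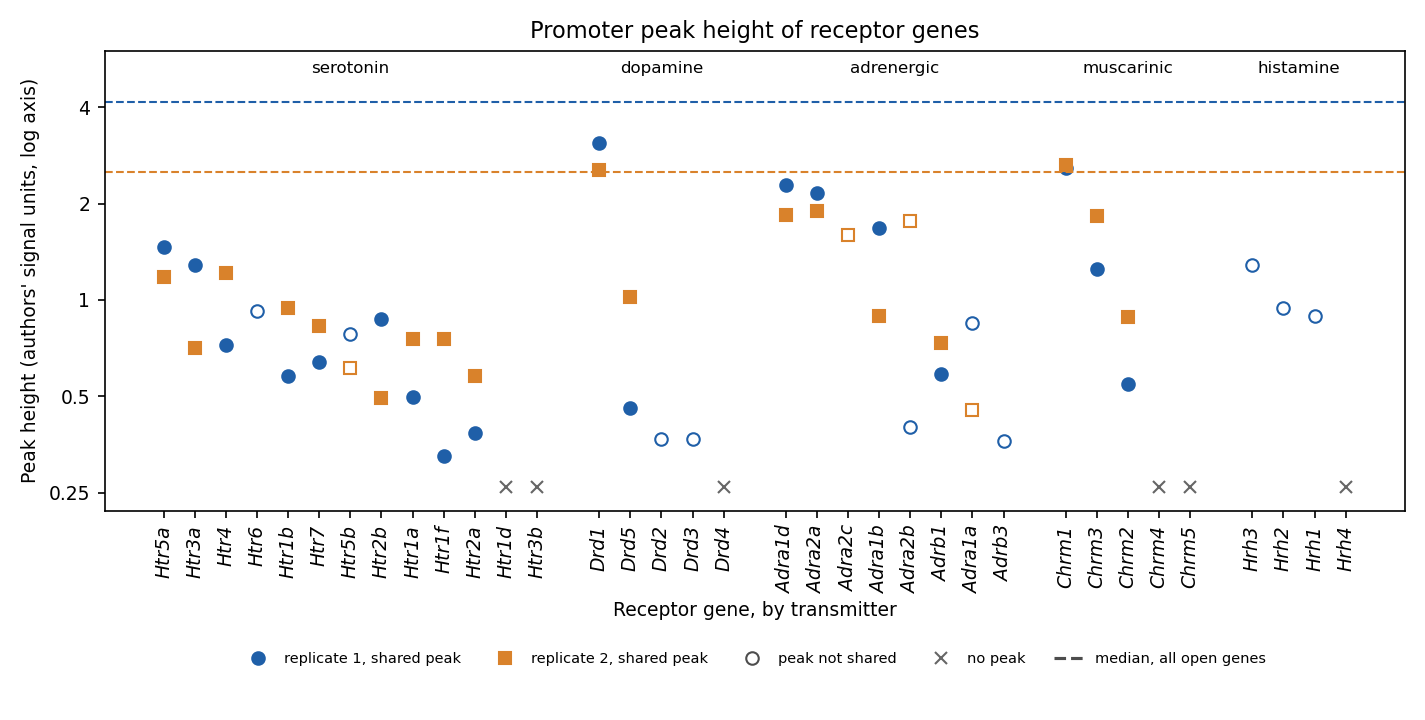
Height of the highest shared promoter peak of the receptor genes shown, in replicate 1 (blue circles) and replicate 2 (orange squares), in the authors' signal units on a log axis, grouped by transmitter; open symbols are peaks that are not shared and crosses mark genes with no peak. Drd1 and Chrm1 are the highest at 2.59 to 3.09 in replicate 1, and in that replicate every receptor shown lies below the dashed median of all open genes, 4.16. In replicate 2, Chrm1 at 2.65 and Drd1 at 2.55 lie just above the median of all open genes, 2.52.

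Serotonin receptors, the largest class, had the largest number of open promoters, 9 of 13 (69.2%, beside 58.2% of all genes). Heights of these 9 were low, with a median of 0.735 for the mean of the replicates. With lists of equal length 3 serotonin genes were open, beside 4 adrenergic genes. With the top 50% of peaks by height it was 2 beside 3, so the order of these classes was not stable. Among the receptors coupled to Gi and Go, Htr5a stood at 1.47 in replicate 1 and 1.18 in replicate 2, at chr5:27841701-27841920, just upstream of its start site. Htr1b, the receptor on axon terminals, measured 0.578 and 0.947, with 4 separate shared peaks over its 2 start sites. Htr1a, the receptor that hyperpolarises pyramidal cells and also serves as the raphe autoreceptor, measured 0.497 and 0.753. Its shared peak covered the start site, and a higher peak of 0.941 downstream reached into the 500 bp window in replicate 1 only. With a window of 2000 bp the mean height of Htr1a was 1.59, so higher shared peaks lay outside the shorter window. Htr1f, at 0.326 and 0.753, lay near the bottom of all open genes, at the 1.20 percentile.

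The Gq-coupled receptor Htr2a, on which psychedelic drugs act, had the lowest open promoter by the mean of the replicates, at 0.385 in replicate 1 and 0.581 in replicate 2, although Htr1f was lower in replicate 1 and Htr2b in replicate 2. Htr2b, known for its role in heart valves, measured 0.872 and 0.495 at a start site inside an intron of Psmd1. Both lay below 1 in each replicate. The channel subunit Htr3a, which marks a class of cortical and hippocampal interneurons, measured 1.28 and 0.710, while Htr3b, which joins it in mixed channels, had no peak. Of the receptors that couple to Gs, Htr4 measured 0.722 and 1.22 over a shared stretch of 740 bp, and Htr7 measured 0.642 and 0.828. Htr4 was open at 1 of its 3 start sites, the outermost.

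A peak in replicate 1 only was found at Htr6, a Gs-coupled receptor of forebrain neurons, at 0.925. Htr5b, which humans lack as a working gene, had a peak of 0.781 in replicate 1 and of 0.613 in replicate 2, but these lay 161 bp apart and shared no base. Htr1d, a relative of Htr1b, had no peak in either replicate and no interval in the deposited lists of false discovery rate. Across the serotonin family, no open promoter exceeded 1.47 in either replicate.

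Dopamine receptors held the highest open promoter by the mean of the replicates, and several that were scarcely detected. Drd1, the D1 receptor coupled to Gs, measured 3.09 in replicate 1 and 2.55 in replicate 2 at chr13:54055641-54055820, across both start sites and part of the first exon's 5′ untranslated region. By the mean of the replicates that put it at the 39.7 percentile of all open genes, still in their lower part. In replicate 2 alone it lay just above their median of 2.52. In replicate 2 Chrm1 was higher, and the gap between these 2 genes was below the replicate spread. Its partner Drd5, the D5 receptor, measured 0.460 and 1.02 over 48 shared bases in its coding exon. Drd2 and Drd3, coupled to Gi and Go, each had a peak of 0.369 in replicate 1 and none in replicate 2. Drd4 had no peak, and its lowest listed false discovery rates were 0.0445 and 0.0461, just under the limit of 0.05 at which intervals are listed. Open promoters thus numbered 2 of 5, and 4 of 5 without replicate 2.

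Among the adrenergic receptors 5 of 9 were open, and 8 of 9 had a peak in each replicate taken alone. Adra1d, a Gq-coupled receptor found in hippocampal pyramidal and granule cells, measured 2.29 in replicate 1 and 1.84 in replicate 2, with 4 shared peaks that covered 800 bp. Adra2a, the receptor that restrains noradrenaline release, measured 2.16 and 1.89, with shared peaks at both start sites. These stood near the 26.7 percentile of open genes, and the gap between them was far below the replicate spread.

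Adra1b measured 1.67 in replicate 1 and 0.893 in replicate 2, but only at an internal start site at position 43836332 of chromosome 11. Its outer start site, at 43901210, had no peak in either replicate, so the gene was not open when only the start of its longest transcript was used. Adrb1, the β1 receptor, measured 0.588 and 0.732 where its peaks met over 26 bases. Its highest peaks in the window were 2.96 in replicate 1 and 1.88 in replicate 2, but they ended 60 bp apart. Counted without the overlap, its mean height was 2.42 rather than 0.660, a change set by the exact edges of the peaks.

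The other adrenergic genes described here had no shared peak inside the 500 bp window. In that window, Adra2b had peaks of 0.401 and 1.76 that lay 449 bp apart, and Adra1a had peaks of 0.845 and 0.452 that lay 570 bp apart. Adra2c, a second α2 receptor, had a peak of 1.59 there in replicate 2 only. Adrb3, the receptor of brown fat, had a peak of 0.364 in replicate 1 only. With a window of 2000 bp on either side, Adra1a, Adra2b and Adra2c also counted as open, with mean heights of 0.665, 2.55 and 1.81. For these genes peaks of both replicates thus did overlap, but outside the 500 bp window. The class then reached 8 of 9.

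The muscarinic receptors were open at 3 of 5 genes in the shared peaks, and at the same count in each replicate alone. Chrm1, the M1 receptor of hippocampal pyramidal cells, measured 2.59 in replicate 1 and 2.65 in replicate 2 at chr19:8664181-8664400, in its first exon. Its 3 shared promoter peaks covered 807 bp, and a further peak upstream, outside the promoter window, reached 3.83 and 1.73. Chrm3, the M3 receptor, measured 1.25 and 1.83 at chr13:10360881-10361100. This was its distant upstream start site, at position 10360844, whereas its start site at position 9878998 had no peak.

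Chrm2, the M2 receptor found on cholinergic terminals and on interneurons, measured 0.545 and 0.882. Chrm4 and Chrm5 had no promoter peak and no listed false discovery rate interval in either replicate. Chrm4, however, was open with the window of 2000 bp, at a mean height of 2.64. In the 500 bp window Chrm2 lay below Chrm1 and Chrm3 in both replicates. Chrm5, an M5 receptor known mainly from dopamine neurons, was not open under any setting.

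Histamine receptors had 0 of 4 open promoters, yet 3 of the 4 had a peak in replicate 1. Hrh3, the autoreceptor that limits histamine release, had a peak of 1.28, Hrh2 of 0.941 and Hrh1 of 0.893, all in replicate 1 and with none in replicate 2. Hrh4, a receptor of immune cells, had no peak in either replicate. For Hrh1 an interval with a false discovery rate of 0.0391 was listed in replicate 2, while Hrh2 and Hrh3 had none there. The count of 0 thus became 3 without replicate 2, the more shallow of the pair if the height steps reflect depth.

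Over all 36 genes, 17 were not called open. By peaks inside the 500 bp window, 7 had one in replicate 1 only (5.66% of all genes) and 1 in replicate 2 only (0.7%). Another 3 had peaks that did not meet there (0.724%) and 6 had none (34.7%). The 6 were Htr1d, Htr3b, Drd4, Chrm4, Chrm5 and Hrh4. Intervals with a false discovery rate below 0.05 were listed in the promoter window of 31 receptor genes in replicate 1 and 27 in replicate 2, beside 65.6% and 60.8% of all genes. Only Htr1d, Htr3b, Chrm4, Chrm5 and Hrh4 had none in either.

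By coupling, Gs receptors were open at 6 of 9 genes, Gq receptors at 6 of 9, Gi and Go receptors at 6 of 16 and the channel subunits at 1 of 2. Over all genes the share was 58.2%. In replicate 1 alone, all 9 Gs receptors, 8 of 9 Gq receptors and 11 of 16 Gi and Go receptors had a promoter peak, beside 64.6% of all genes. Median mean heights of the open genes were 1.41 for Gq, 0.855 for Gs and 0.738 for Gi and Go. The classes overlapped widely, since Gs ran from Adrb1 to Drd1 and Gi and Go ran from Htr1f to Adra2a. Their differences were not tested, because genes are not replicates.

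Heights of the open receptors could be ordered only in broad terms. The spread between replicates, as the standard deviation of the log2 ratio of replicate 2 to replicate 1 over all 12064 open promoters, was 0.52. Ranked by mean log2 height, no gene differed from the next by more than this. Of the 171 pairs of open receptor genes, 128 had the same order in both replicates and 104 of these also differed by more than the spread. Over the 19 receptor genes themselves the same standard deviation was 0.65, and over the 11 with a mean height under 1 it was 0.68. The count of 104 thus rests on a spread smaller than their own and would not rise with a larger one. Drd1, Chrm1, Adra1d and Adra2a formed the upper end, each at or above 1.84 in both replicates, and Htr1f and Htr2a the lower end. Log2 heights of replicates 1 and 2 had a Pearson r of 0.76 and a Spearman rho of 0.69 over the 19 genes, beside 0.90 and 0.89 over all open genes. Those are descriptions across genes, which share library and depth.

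**Figure D2:**
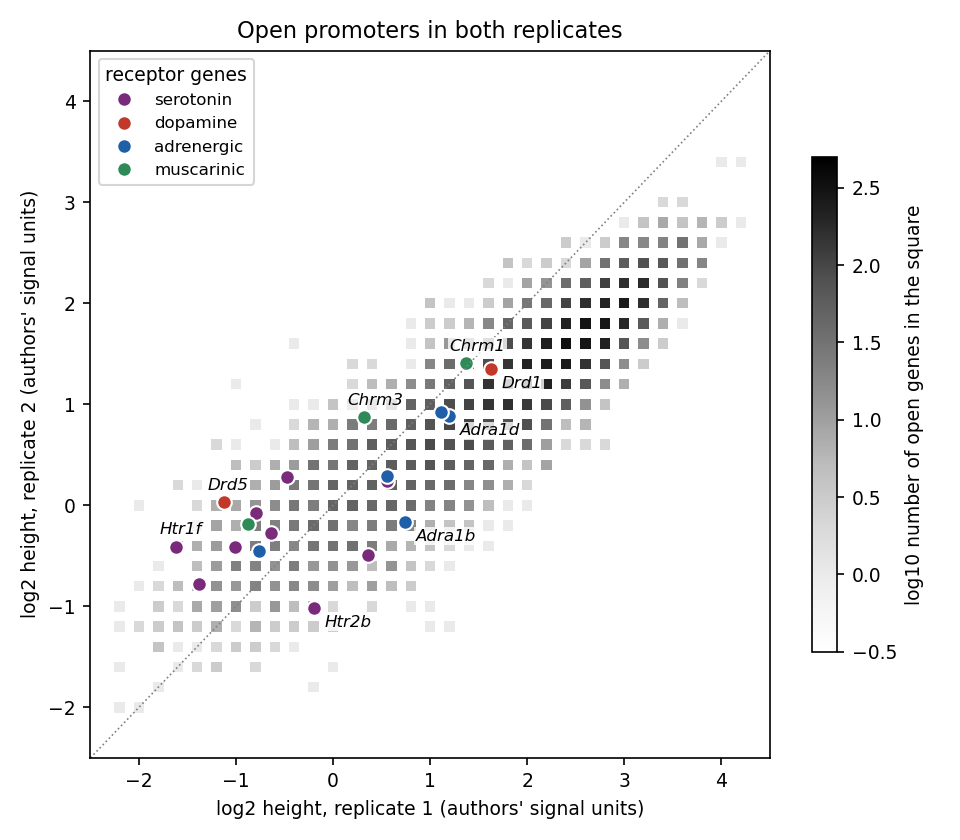
Log2 promoter height in replicate 2 against replicate 1, in the authors' signal units, for the 19 open receptor genes (coloured by transmitter) over all 12064 open genes (grey squares, darker for more genes; the dotted line marks equality). Receptor genes occupy the lower left, 11 of 19 of them above the line of equality, while most genes lie below it.

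The receptors also differed from most genes in which replicate was higher. Replicate 2 was higher at 11 of the 19 open receptor genes (57.9%), with a median log2 ratio of 0.31, whereas it was higher at 12.8% of all open genes, with a median of -0.71. This moved with height. A mean height under 1 was found at 57.9% of the open receptor genes and at 8.21% of all open genes. Of the 11 receptor genes with such a height, 9 were higher in replicate 2 and the median ratio was 0.60. Of the 990 open genes of that height, 576 were higher in replicate 2 and the median was 0.12. Between 1 and 2 the medians were -0.28 for 4 receptor genes and -0.25 for all, and at 2 or more -0.23 for 4 receptor genes and -0.83 for all. Among the 19, the log2 ratio was highest at Drd5 and Htr1f, at 1.15 and 1.21. It was lowest at Adra1b, Htr3a and Htr2b, at -0.91, -0.85 and -0.82. The part of depth in this was not tested.

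The open calls were set beside base composition and gene structure. GC content was taken in the window at the start of the longest transcript, while the open call used any start site. It had a median of 54.9% for the receptors and 55.5% for all genes. Where it was 60% or more, 6 of 13 receptor promoters were open, beside 88.2% of all genes in that range. In the range from 50 to 60% it was 7 of 12, beside 65.0%. Below 50% it was 6 of 11, beside 17.6%, and these were Htr1a, Htr2a, Htr2b, Htr4, Adra1b and Adra2a. Of these, Htr4 and Adra1b were not open at the start site whose GC content was taken, but at another. Over the 19 open receptors, height and GC content had a Pearson r of 0.15 and a Spearman rho of 0.22, beside 0.13 and 0.12 over all open genes. In the same window the ratio of observed to expected CpG pairs had a median of 0.456 for the receptors and 0.585 for all genes. Height and this ratio had a Pearson r of -0.08 and a Spearman rho of -0.02 over the 19. Over all open genes these were 0.34 and 0.33.

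Many amine receptors are encoded in a single coding exon, and 17 of the 36 were of this kind. Of those, 11 were open, beside 23.2% of all genes with a single coding exon, a class that holds many olfactory receptors. Of the 19 receptor genes with more than 1 coding exon, 8 were open, beside 64.4%. None of the 36 had the start of another protein-coding gene within 1000 bp of its own start sites. Which gene a peak serves was not measured.

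**Figure D3:**
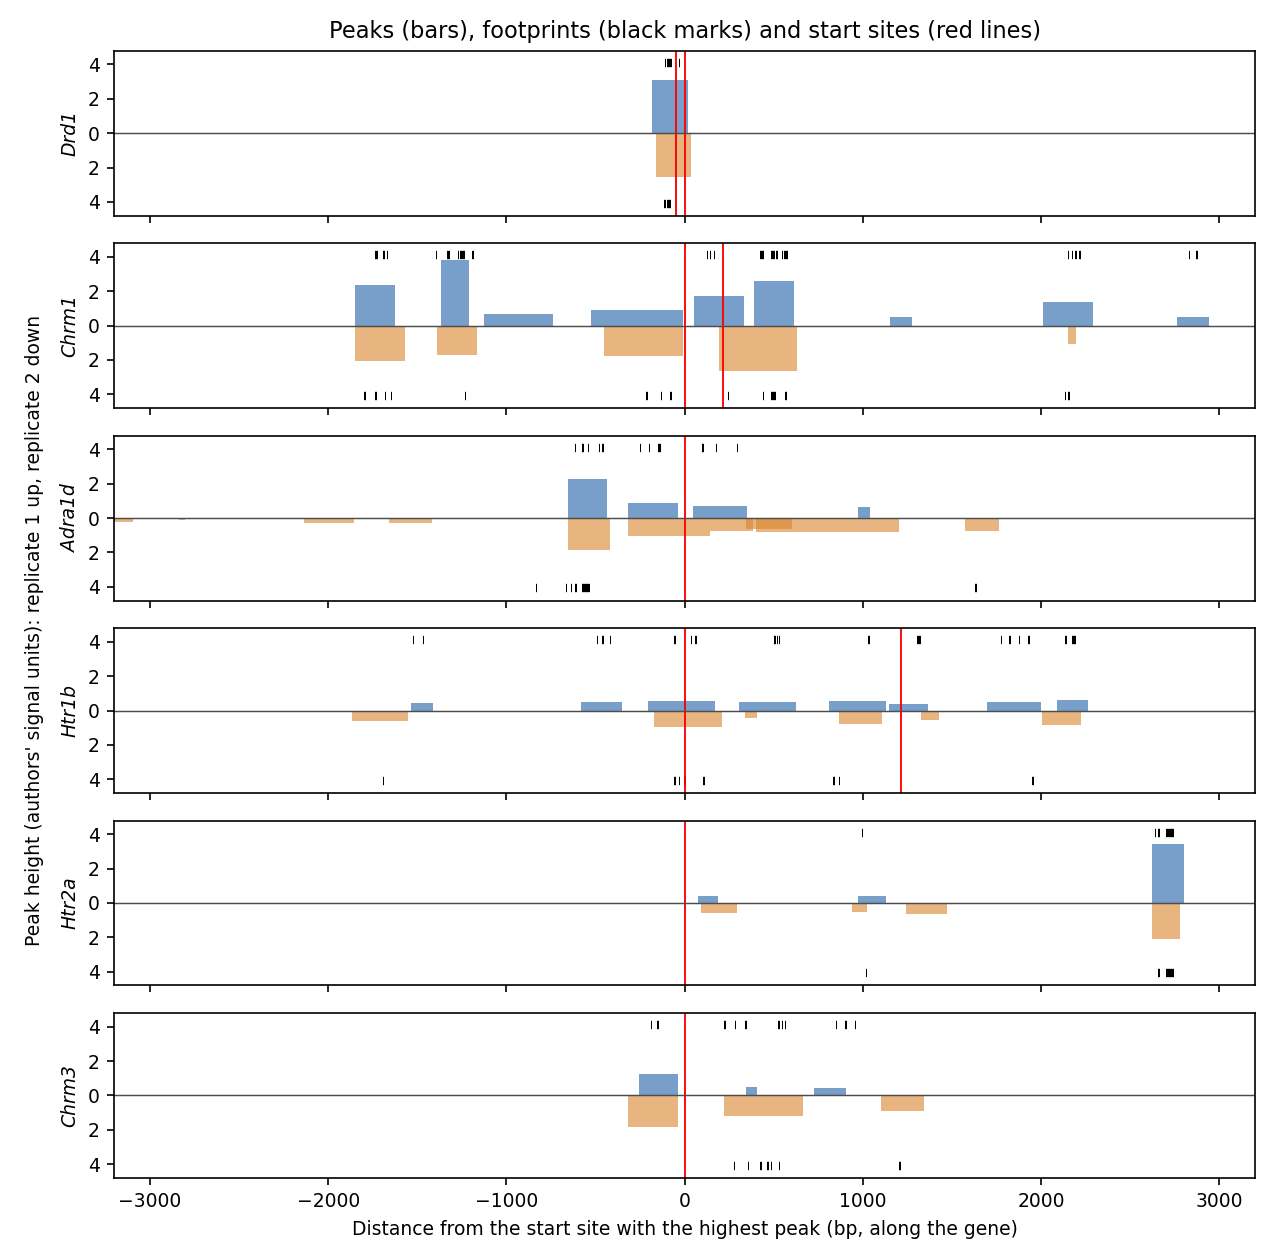
Peaks of replicate 1 (blue, drawn upward) and replicate 2 (orange, drawn downward) around the start sites of 6 receptor genes, with height in the authors' signal units and distance in bp along the gene from the start site with the highest peak; black marks are footprints and red lines are start sites. Drd1 has a single compact peak, Chrm1, Adra1d and Htr1b have several, and at Htr2a the site 2621 bp inside the gene stands at 3.43 and 2.10, above its promoter peak of 0.385 and 0.581.

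Distal sites were shared peaks over 2500 bp from every protein-coding start site, taken in the gene body and 10 kb on each side. The receptors had 31 of them, at 19 of 36 genes (52.8%, beside 41.8% of all genes). The density had a median of 0.969 per 100 kb and a mean of 1.68, beside 0 and 1.39 over all genes. Introns of the receptor gene itself held 16 of the 31, its untranslated regions 3, a coding exon 1, and 11 lay outside it. The nearest coding start was that of the receptor gene for 25 of the 31. Assignment is by position only, and which gene such a site acts on was not measured. These counts depended on the replicate: replicate 1 alone gave 110 distal peaks at 29 genes, where 68.1% of all genes had one, and replicate 2 alone gave 50 at 21 genes, where 44.4% of all genes had one.

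At the distal sites the receptors were much like other genes. Median heights were 1.42 in replicate 1 and 0.968 in replicate 2, beside 1.28 and 0.871 over all 27632 autosomal distal shared peaks. Replicate 1 was higher at 23 of the 31 sites, beside 75.9% of all. Median width was 140 bp, beside 149 bp, and a footprint was found in both replicates at 14 sites (45.2%, beside 46.3%). By mean height, 18 of the 31 lay above the median of all distal peaks, 1.10. So the low heights seen at receptor promoters were not seen at their distal sites.

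By the mean of the replicates the highest distal site belonged to Htr2a, whose promoter was the lowest of the open ones by the same mean; in replicate 1 sites of Adra1b and Htr3a were higher. It lay in an intron at chr14:74643461-74643620, 2621 bp from the start and so only just beyond the distal limit, and measured 3.43 in replicate 1 and 2.10 in replicate 2. It held 4 stretches of footprint found in both. Adra1b had the next, at 4.28 and 1.05, in its intron at chr11:43783881-43784020, and a further one at 2.18 and 1.30 at chr11:43767061-43767120, beyond its 3′ end. For both of these the nearest coding start was that of Ttc1.

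Downstream of Htr3a a site at chr9:48894201-48894360 measured 3.68 in replicate 1 and 1.65 in replicate 2, and downstream of Htr1b a site at chr9:81627021-81627200 measured 3.39 and 1.05. An intronic site of Drd3 at chr16:43802121-43802280 measured 3.10 and 1.37, at a gene whose promoter peak was not shared. A site 5209 bp upstream of Chrm4, at chr2:91921843-91922040, measured 2.08 and 1.97, the most even of the leading sites. Introns of Hrh2, Htr4 and Chrm3 held the rest of the 10 highest, at 2.43 and 0.968 for Hrh2, 2.18 and 1.01 for Htr4, and 2.09 and 0.828 for Chrm3. In all 10, replicate 1 was higher, and the gap was widest at Adra1b.

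By class, 9 of 13 serotonin receptors had a distal site, with 15 sites between them, 3 of 5 muscarinic receptors had 7, 4 of 9 adrenergic receptors had 5, 2 of 4 histamine receptors had 2, and of 5 dopamine receptors only Drd3 had any, with 2. The number was greatest at Chrm3, with 5 sites over a span of 505 kb, and the density at Htr1a, with 4 sites at 16.3 per 100 kb. The Htr1a sites were low, from 0.416 to 1.21 by mean height. Drd1, with the highest promoter by the mean of the replicates, had no shared distal site, and Chrm4 and Htr3b had a distal site without a promoter peak.

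**Figure D4:**
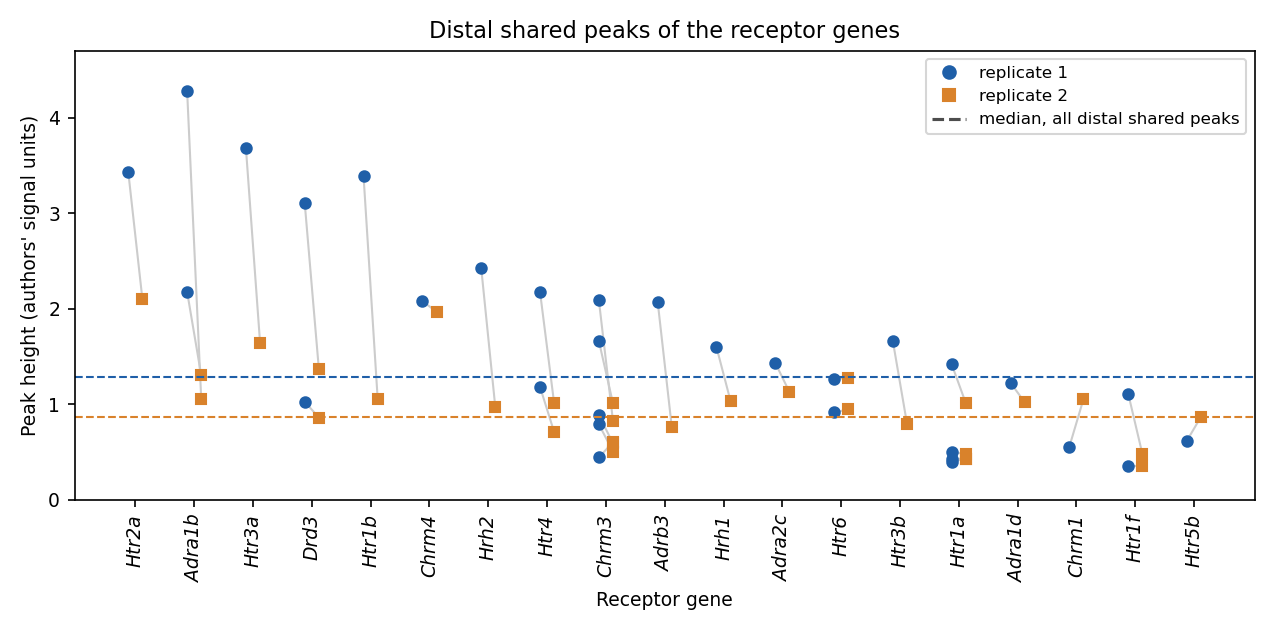
Height of each of the 31 distal shared peaks in replicate 1 (blue) and replicate 2 (orange), in the authors' signal units, by receptor gene; grey lines join the replicates of a site and dashed lines mark the medians of all distal shared peaks, 1.28 and 0.871. Htr2a, Adra1b, Htr3a, Drd3 and Htr1b have sites above 3 in replicate 1, of which only that of Htr2a exceeds 2 in replicate 2.

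Windows of 200 bp centred on the shared peaks were searched on both strands for 14 motifs. They were the right and left parts, GGACAGCGC and TTCAGCACC, of the site of REST, a repressor of neuronal genes outside neurons, the CTCF core AGGGGGCGC, the CRE TGACGTCA, AP-1 TGAGTCA, EGR GCGTGGGCG, NRF1 GCGCATGCG, SP/KLF GGGGCGGGG, the neuronal E-box CAGATG, MEF2 CTAAAAATA, RFX GTTGCCATG, ETS ACCGGAAGT, YY1 AAGATGGCG and the CCAAT box GATTGG. Of 30 promoter peaks of the receptors, 0 held the SP/KLF letters, beside 15.8% of 16750 promoter peaks, and 1 the CCAAT box, beside 14.4%. The E-box was in 2 promoter windows, beside 7.13% of all, and in 10 of 31 distal windows (32.3%, beside 29.4%). A match to letters is a description and shows no bound factor.

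At the Htr5a promoter the right part of the REST site, GGACAGCGC, lies near the start of the sequence above. Those letters were in 0.716% of all promoter windows, and at Htr5a they fell in a footprint of replicate 1 only. At the Htr7 promoter the EGR letters, GCGTGGGCG, counted as in a footprint found in both replicates. The EGR letters were in 1 of 30 receptor promoter windows, beside 1.02% of all.

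Several of the higher sites held letters like the core of the motif of CTCF, a zinc finger protein known for anchoring chromatin loops. The exact core was in 2 of 31 distal windows (6.45%, beside 2.35%), those of Adrb3 and Chrm4, and in 0 of 30 promoter windows. After the sequences had been seen, 16 forms of the core were searched, written AGNNGGCNN, in which the variable positions stood for A or G, G or T, A or G, and C or G in that order; the exact core is one of these forms. In footprints found in both replicates they occurred in the Drd1 promoter and at 6 distal sites. Each stretch is printed on the strand of the match, with the match in capitals, from chr13:54055726-54055764 (minus) for Drd1, chr14:74643538-74643576 (minus) for Htr2a, chr11:43783914-43783952 (plus) for Adra1b, chr9:48894284-48894322 (minus) for Htr3a, chr9:81627093-81627131 (minus) for Htr1b, chr8:27253849-27253887 (plus) for Adrb3 and chr2:131545542-131545580 (plus) for Adra1d.
Drd1 promoter: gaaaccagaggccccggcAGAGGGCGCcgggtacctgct
Htr2a distal: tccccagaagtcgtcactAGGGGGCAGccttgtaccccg
Adra1b distal: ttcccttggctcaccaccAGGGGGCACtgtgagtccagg
Htr3a distal: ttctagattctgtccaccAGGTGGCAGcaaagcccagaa
Htr1b distal: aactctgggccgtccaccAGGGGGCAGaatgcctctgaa
Adrb3 distal: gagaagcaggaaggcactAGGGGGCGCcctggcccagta
Adra1d distal: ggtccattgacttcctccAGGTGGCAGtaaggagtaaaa

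Of the 6 receptor distal sites with a mean height of 2 or more, 4 had such a match in a footprint of both replicates (66.7%, beside 43.8% of 5385 autosomal distal peaks of that height). Of the 25 lower sites, 2 had one (8%, beside 7.51% of 22247). The match thus went with height among all distal peaks. In the lower group the receptors' share lay near that of all peaks, and in the higher group it rests on 6 sites. The forms were written after the sequences had been seen, which can raise the receptors' share. Over promoter windows, the 16 forms occurred in 4 of 30 (13.3%, beside 16.9%). Whether CTCF occupies these sites was not measured.

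Genes that make and remove the transmitters were open less widely than those that carry the receptors' signals onward. Of 12 genes for synthesis, packaging, uptake and breakdown of serotonin and catecholamines, 4 were open. Slc18a1, a vesicular transporter, stood at 10.5 in replicate 1 and 4.29 in replicate 2 beside the start of Atp6v1b2. Dbh, which makes noradrenaline, stood at 3.21 and 1.51. Pnmt, Slc18a2 and Slc6a2, which make adrenaline and carry amines into vesicles and noradrenaline into cells, were among the 5 without a peak in either replicate.

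For histamine, Hnmt, which inactivates it, was open at 0.775 and 1.20, and Hdc, which makes it, had no peak. For acetylcholine 2 of 5 were open, the esterases Ache at 1.61 and 1.40 and Bche at 0.444 and 0.753, and Chat and Slc18a3, which make and package it, had no peak. Nicotinic subunits were open at 4 of 16 genes. Chrna7, the subunit of the α7 channel of hippocampal neurons, led them at 3.94 in replicate 1 and 2.60 in replicate 2, followed by the muscle subunit gene Chrnb1 at 3.05 and 1.27 and Chrnb2 at 1.33 and 1.06. Chrna1, Chrna10 and Chrna2 were among the 9 without a peak.

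G protein α subunits were open at 10 of 10 genes, and receptor kinases and arrestins, which switch receptors off, at 7 of 7. Gna11 led the first at 11.2 in replicate 1 and 5.25 in replicate 2, with Gnaz at 7.66 and 4.14 and Gnai2 at 5.94 and 2.97. Arrb2 led the second at 9.81 and 5.24, with Grk6 at 8.94 and 5.03 and Grk4, beside the start of Nop14, at 9.11 and 4.02. Every one of those 6 stood above the highest receptor promoter in both replicates. Adenylyl cyclases were open at 7 of 10, led by Adcy9 at 5.20 and 3.44, Adcy1 at 1.85 and 1.41 and Adcy2 at 1.68 and 1.57, and Adcy4 and Adcy7 had no peak. Phospholipase C β genes were open at 3 of 4, with Plcb1 at 4.39 and 2.48, Plcb3 at 1.56 and 0.947 and Plcb4 at 0.497 and 0.753, and Plcb2 had no peak. In all, 38 of the 66 pathway genes were open (57.6%), close to the 58.2% of all genes.

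The count of open receptor promoters moved with the stringency of the definition more than it did over all genes. It was 13 of 36 (36.1%, beside 52.3% of all genes) with the stricter deposited lists, 10 (27.8%, beside 55.6%) with lists of equal length and 8 (22.2%, beside 53.1%) with the upper 50% of peaks by height. With a peak in at least 1 replicate it was 30 (83.3%, beside 65.3%). Adra1d, Chrm1, Chrm3 and Drd1 were open under all 11 alternatives. Htr1d, Htr3b, Drd4, Chrm5 and Hrh4 were open under none.

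**Figure D5:**
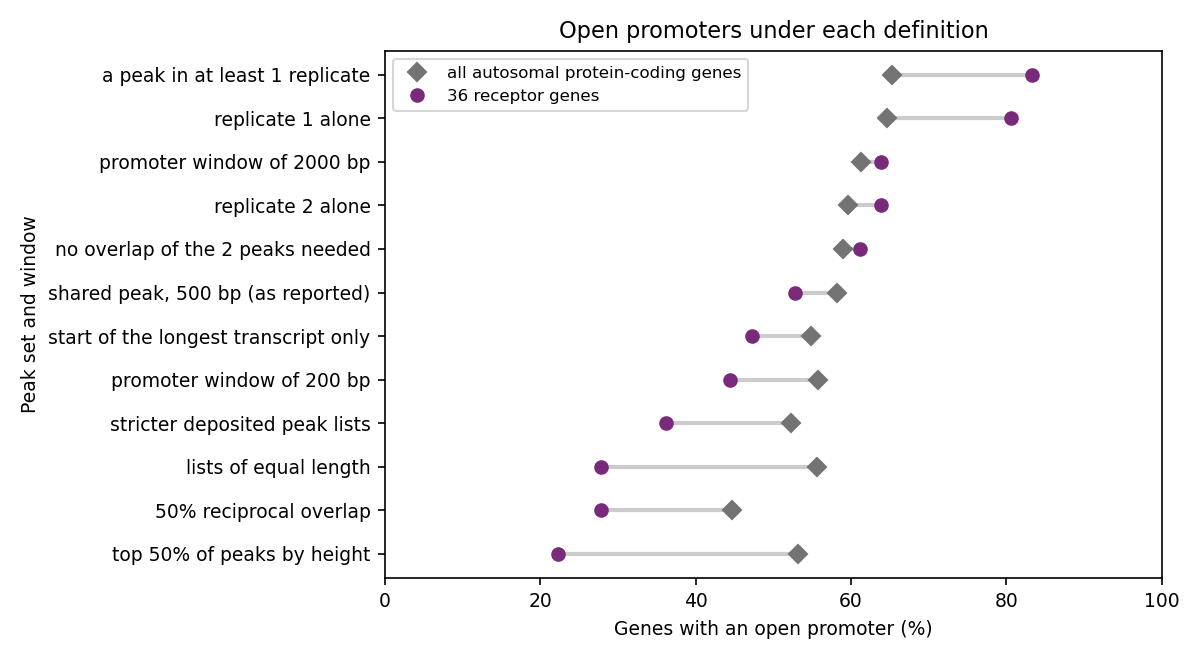
Share of genes with an open promoter, in percent, under each definition, for the 36 receptor genes (purple circles) and all autosomal protein-coding genes (grey diamonds). The receptors range from 22.2% to 83.3% and all genes from 44.7% to 65.3%, so the receptors lie above all genes under lenient definitions and below them under strict ones.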

How the data were processed

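DNase-seq was deposited for 2 replicates of 1 group on assembly mm10, per the labels. For each replicate the authors deposited a longer and a shorter peak list, footprints, and intervals with false discovery rates. The peak height is the authors' signal value, and the FDR is their deposited q-value per interval, listed only below 0.05. The footprint column that would hold a p-value had the constant 0.01 in the deposited files, so footprints were used by position. For the alignment and for the calling of peaks and footprints, tools and cutoffs were not given in the sources used here. Likewise, the unit of height is not stated, and depth was inferred from its steps.

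Shared peaks were the intersections of overlapping peaks (at least 1 bp) of the longer lists, and 50780 resulted. The height in a replicate was the highest peak over the shared stretch. Genes, start sites and exons came from GENCODE M21 and sequences from RefSeq GRCm38.p6. Stretches in untranslated regions beyond 30 bases and those of chromosome 18 were not printed. Motif matches counted as in a footprint when within it or 10 bases beyond it. Python 3.11.15, numpy 2.4.6, pandas 2.3.3, pysam 0.24.0 and matplotlib 3.10.9 were used, and the calls were tested on simulated data. Values of a few genes and sequences are not reported here. The members are named by their calls, the 10 highest distal sites are described one by one, and from each pathway list up to 3 open genes highest by mean height and up to 3 without a peak. The members, lists and definitions were chosen with earlier results of these data known. The alternatives are listed with the limits of the results.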

Additional observations from a re-analysis of the deposited data

How the results depend on the processing

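No paired analysis was possible because the series has 1 group. With 2 replicates the spread rests on 1 pair, peak calls near the limit of detection decide most receptor counts, and no depth is stated. Against 19 open receptor genes, leaving out a replicate gave 23 to 29, 50% reciprocal overlap 10, a peak in at least 1 replicate 30, lists of equal length 10 and the top 50% of peaks 8. Under these 4 settings in that order, adrenergic genes numbered 2, 9, 4 and 3 (5 as reported), Gi and Go genes 2, 12, 2 and 2 (6), serotonin genes 5, 11, 3 and 2 (9), dopamine genes 1, 4, 1 and 1 (2) and Gs genes 3, 9, 2 and 3 (6). Gq genes fell to 3 (6) with the top 50%, and the channel genes to 0 (1) with it and with the stricter lists. The stricter lists gave 5 serotonin and 1 dopamine gene, and histamine genes became 3 (0) with a peak in at least 1 replicate. A 200 bp window left 1 dopamine gene, and a 2000 bp window gave 8 adrenergic genes. Leaving out a replicate gave 2 to 4 dopamine genes, 8 adrenergic genes either way, 0 to 3 histamine genes and 9 to 11 Gi and Go genes. The median mean height of 0.969 became 1.44 with lists of equal length and 1.78 with the top 50%. The 31 distal peaks became 13 with the stricter lists, 19 with 50% reciprocal overlap, 128 with a peak in at least 1 replicate, 16 with the top 50%, 76 with a flank of 50 kb, 20 with no flank and 50 to 110 without a replicate. The 19 genes with a distal peak became 11 with the stricter lists, 30 with a peak in at least 1 replicate, 30 with the 50 kb flank, 12 with no flank and 21 to 29 without a replicate. Footprints in receptor promoter peaks, 53 in replicate 1 and 49 in replicate 2, became 124 and 94 with a peak in at least 1 replicate, 34 and 31 with the top 50%, and 96 and 81 with the 2000 bp window. They became 35 in replicate 1 with lists of equal length and 27 in replicate 2 with 50% reciprocal overlap, and leaving out a replicate gave 68 to 105 and 58 to 75. Fewer or more peaks enter by the construction of these settings. The count of 38 pathway genes stayed within 1.5 times under every setting. The search for 16 forms of the CTCF core, and the count of open promoters with no overlap of the peaks needed, which gave 22, were chosen after seeing the data.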

Other observations

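A noncoding gene was annotated over the promoter peak of 7 of the 19 open receptor genes (36.8%), beside 11.6% of all open genes. At Adra1d, Chrm3, Htr1b and Drd5 it was an antisense gene: Gm14285, Gm26861, D430036J16Rik and Gm26560. At Chrm1 and Chrm2 it was a long intergenic noncoding RNA gene: AC025794.1 and 9330158H04Rik. A noncoding start within 1000 bp was annotated for 3 of the 19 (15.8%), Chrm1 and Adra1d among them, beside 11.4% of all open genes. DNase I cuts carry no direction of transcription, so a peak there does not show which of the overlapping genes it serves. Chrm1, Adra1d and Chrm3, which were open under all 11 alternatives, are among the 7, and Drd1 is not. All of these genes were singled out after their values were seen.

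Over all genes, 68.1% had a distal peak in replicate 1 taken alone and 44.4% in replicate 2 taken alone. Of the receptor genes with no shared distal site, 9 had distal peaks in replicate 1 and none in replicate 2. Hrh3 had 2 of them, the highest at 1.91, Hrh4 had 2, the highest at 1.90, and Drd1 and Htr1d had 1 each, at 1.33 and 1.19. The others were lower: Htr7 with 1 at 0.941, Htr5a with 1 at 0.615, Chrm2 with 3 up to 0.594, Adrb1 with 1 at 0.471 and Drd2 with 3 up to 0.390. Hrh1, with a shared distal site, had 9 distal peaks in replicate 1 and 1 in replicate 2.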
